A study of Mus musculus with 4 samples.

Results

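Fibroblast growth factor (FGF) signalling was followed through 10 genes in the lungs of newborn mice, comparing Ryk mutants with wild type. The genes are the ligands Fgf7, Fgf9, Fgf10 and Fgf18, the receptor Fgfr2, the transcription factors Etv4 and Etv5 that the pathway switches on, and the Sprouty inhibitors Spry1, Spry2 and Spry4. They were taken by symbol from a table of 48709 genes; each of the 10 had 1 row and passed the filter for testing (a mean value of at least 10 over the 4 libraries). RNA came from the left lung lobe of 4 untreated C57BL/6 mice at postnatal day 1: 2 were RykSL/SL, carrying the SL allele of Ryk on both copies and called mutant here, and 2 were wild-type. Ryk encodes a receptor for WNT ligands. How the SL allele alters the gene, and the sex and litter of the mice, are not in the labels. Each library is bulk RNA from a separate mouse.

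In the lung, FGF10 and FGF7 are made by mesenchyme and act on the epithelium through the epithelial splice form of FGFR2, where they drive branching and growth of the distal buds. FGF9, made by the mesothelium and the epithelium, acts in the other direction and keeps the mesenchyme growing, and FGF18 is a mesenchymal ligand of later lung development. Activated receptors signal through the adaptor FRS2, RAS and ERK, which induce the ETS-family factors Etv4 and Etv5. The same signal induces Sprouty proteins, which feed back to damp the RAS and ERK relay.

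Library totals of the authors' normalized values lay between 18658239 and 19987634, with estimated totals of about 17050000 to 22830000 reads over genes once that scaling was undone. Ryk transcript itself stood at 2757 and 2203 in mutant lungs 1 and 2 versus 2528 and 2525 in wild-type lungs 1 and 2 (log2 fold change -0.04, adjusted p = 0.926), so its level does not check the labels. The lungs were not equally alike: over the 18436 genes tested, log2 values of the pair of wild-type lungs differed with a standard deviation of 0.31, and those of the mutant pair with 0.60. Mutant lung 1 stood apart in sex-linked RNA, with 24836 normalized counts of Xist against 9, 7 and 23 in mutant lung 2 and wild-type lungs 1 and 2, and with 56 of the Y-linked gene Ddx3y against 3769, 2328 and 2197. This is a female pattern in mutant lung 1 and a male pattern in mutant lung 2 and the wild-type lungs. The mutant lungs thus differed in it and the wild-type lungs did not. The part of sex in differences between the mutant lungs was not tested. Mutant lung 2 was the furthest from the wild type (standard deviations of 0.76 and 0.74). Values are therefore given for each lung, and the tests also without each of them.

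Fgf9 was the member that passed the test: it fell in both mutant lungs to 26.9% of the wild-type mean. Etv5 and Etv4 had means at 42.0% and 42.2% of wild type, but the mutant lungs differed from each other and neither gene passed. Fgfr2, Fgf18 and Fgf10 had mutant means of 83.1%, 75.5% and 88.3%, and Fgf7, Spry1, Spry2 and Spry4 had means of 99.6%, 103%, 118% and 99.9%. Thus 1 of 10 members was called lower and none higher at an adjusted p under 0.05, where 2.39% of all tested genes were called, 0.917% lower and 1.47% higher. The test was limma on log2(value + 1) with Benjamini-Hochberg adjustment over all 18436 genes. In 7 of the 10 members both mutant lungs lay on the same side of both wild-type lungs, 6 of them lower and Spry1 higher. Over all tested genes the groups did not overlap in 52.6%, and in 26.9% they did not overlap with the mutant lower; the 7 members are near the first share and the 6 lower members above the second, in a set chosen with earlier results known. The median log2 fold change was -0.23 over the 10 members and -0.02 over all tested genes.

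**Figure D1:**
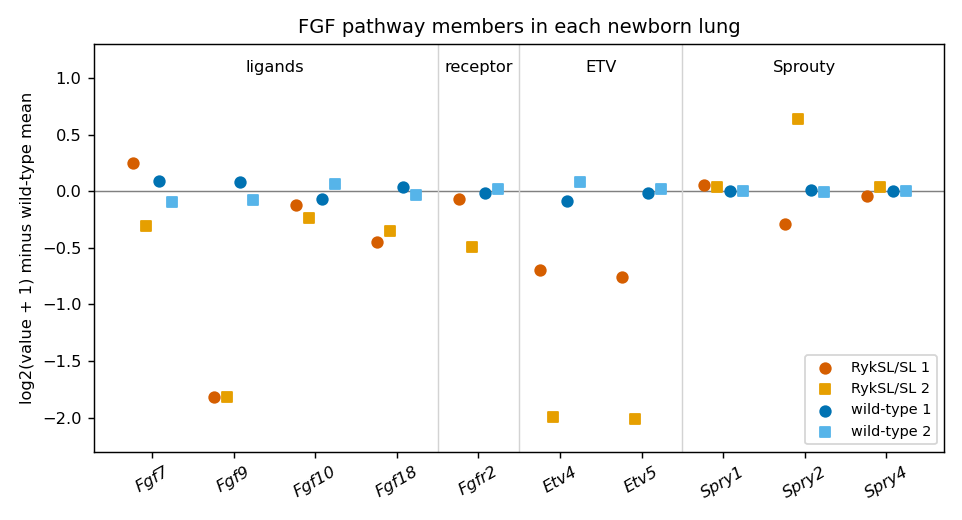
Normalized values of the 10 genes in each lung, as log2(value + 1) minus the mean of the 2 wild-type lungs (vertical axis); each point is 1 lung and no error bar is drawn. Fgf9 lies at -1.82 in both mutant lungs, Etv4 and Etv5 lie lower in mutant lung 2 (-1.998 and -2.01) than in mutant lung 1 (-0.70 and -0.75), and Spry1 and Spry4 lie close to 0 in all 4 lungs.

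Sequence before RefSeq transcription starts of 3 of these genes is shown first. Promoters of 8 of the 10 members were matched by symbol in RefSeq (GRCm38.p6), giving 9 windows of 250 bases before a transcription start, Etv5 having 2 starts. The windows were searched on both strands for CCGGAA and AGGAAG, cores that ETS factors such as ETV4 and ETV5 bind; the motifs do not contain each other. Fgf9 is shown as the member that fell, Etv5 as the more abundant ETV gene (the start whose window lies outside annotated Etv5 exons), and Fgfr2 as the gene whose window held a motif; neither Etv5 nor Fgfr2 passed the test. All 3 windows lie within the GENCODE span of their gene, before RefSeq starts inside that span, and not before its outermost start. Each is written 5′ to 3′ on the strand of the gene, and capitals mark AGGAAG.
Fgf9, chr14:58072436-58072685, plus strand: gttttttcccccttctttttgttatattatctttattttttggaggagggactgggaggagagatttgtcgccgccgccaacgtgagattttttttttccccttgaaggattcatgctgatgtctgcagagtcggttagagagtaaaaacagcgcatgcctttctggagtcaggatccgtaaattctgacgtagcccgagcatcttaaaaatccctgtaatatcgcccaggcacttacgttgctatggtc
Etv5, chr16:22438369-22438618, minus strand: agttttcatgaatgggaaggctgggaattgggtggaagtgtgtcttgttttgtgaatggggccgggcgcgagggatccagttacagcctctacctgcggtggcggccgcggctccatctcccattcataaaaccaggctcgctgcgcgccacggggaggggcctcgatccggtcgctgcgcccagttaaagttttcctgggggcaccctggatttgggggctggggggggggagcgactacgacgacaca
Fgfr2, chr7:130266809-130267058, minus strand: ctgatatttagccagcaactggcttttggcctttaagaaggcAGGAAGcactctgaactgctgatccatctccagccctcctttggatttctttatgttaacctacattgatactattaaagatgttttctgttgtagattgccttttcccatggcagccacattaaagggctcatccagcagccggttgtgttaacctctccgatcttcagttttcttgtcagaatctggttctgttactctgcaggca
AGGAAG occurred in 1 of the 9 windows, that of Fgfr2, with its first base 208 bases before the start, and CCGGAA in none of them. Over 32851 RefSeq promoter windows of the same length, 29.5% held AGGAAG and 12.03% held CCGGAA. The windows of Fgf9, Etv5 and Fgfr2 printed above had a G+C content of 44.8%, 62.0% and 44.0%.

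Among the ligands, Fgf9 (ENSMUSG00000021974, chromosome 14, 58070547 to 58112337, GRCm38) had normalized counts of 14 and 14 in mutant lungs 1 and 2, versus 55 and 49 in wild-type lungs 1 and 2. The groups did not overlap, and the mutant lungs had the same value. The log2 fold change, mutant minus wild type in log2(value + 1), was -1.82 (standard error 0.30, 95% interval -2.55 to -1.09, limma, adjusted p = 0.0436). The gene is low, so its precision is limited by counting: undoing the authors' scaling gave about 16 and 12 reads in the mutant lungs, versus 56 and 49 for wild type. Exact 95% Poisson intervals, which cover counting error only, were 9.15 to 26.0 and 6.20 to 21.0 reads against 42.3 to 72.7 and 36.3 to 64.8. The log2 fold change was -1.74 without wild-type lung 1 and -1.90 without wild-type lung 2. Leaving out either mutant lung could not move it from -1.82, since the 2 values were equal. The call did not stay: the adjusted p was 0.0441 without mutant lung 1, 0.101 without mutant lung 2, and 0.872 and 0.768 without wild-type lungs 1 and 2, fits in which, for the last 3, no gene of the whole table passed.

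Fgf9 is a product of mesothelium and epithelium, so markers of both are set beside it. The 5 mesothelial markers (Wt1, Upk3b, Msln, Lrrn4, Upk1b) summed to 9803 and 20395 in the mutant lungs, versus 15128 and 13044 for wild type. None passed the test and none was at 0. The mutant sums lay on either side of the wild-type sums. Most of each sum was Msln, with 6948 and 14653 against 9740 and 8869. The 6 epithelial markers summed to 34428 and 21841 against 31838 and 28901, and none passed. Mesenchymal markers summed to 42265 and 43980 against 60315 and 58525, with Meox2 lower and Pdgfra higher among 8. Leukocyte markers summed to 1471 and 1234 against 2044 and 1826, with 0 of 5 called. Heart muscle markers summed to 3320 and 3219 against 6436 and 6354, with Myl7 and Myl4 lower among 6 and Nppa at 1 to 3 in each lung. In these 3 lists the sums did not overlap and the mutant was lower. The same held for the sums of alveolar type 1 markers (65856 and 59711 against 68117 and 68823, with 0 of 6 called). Among them Ager differed most, with 15977 and 18969 against 26920 and 27795. By gene, 3 of the 6 had positive fold changes, and the median log2 fold change was -0.03. Heat shock genes summed to 1721 and 2122 against 1564 and 1484, higher in the mutant without overlap, with 0 of 4 called. By gene, only 2 of the 4 were higher without overlap, and the median log2 fold change was 0.08. Hsph1 differed most (577 and 1075 against 482 and 464), and Hspa1b had a log2 fold change of -0.31. The part of these cell types in the Fgf9 result was not tested. In bulk RNA, fewer cells of a type and less RNA per cell cannot be told apart.

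Fgf10 (ENSMUSG00000021732, chromosome 13, 118669791 to 118792115), the main branching signal, had 885 and 814 normalized counts in the mutant versus 918 and 1006 in the wild type. The mutant lungs were lower without overlap, but by less than the test could separate from the replicate spread: the log2 fold change was -0.18 with a 95% interval of -0.52 to 0.17 (adjusted p = 0.527). Its exons overlap those of the antisense gene Gm16263 by 123 bases, and Gm16263 had values of 9 and 7 against 15 and 21. Fgf18 (ENSMUSG00000057967, chromosome 11, 33117430 to 33147400) had 101 and 108 against 142 and 135, again without overlap, and a log2 fold change of -0.40 (-0.88 to 0.07, adjusted p = 0.308). Fgf7 (ENSMUSG00000027208, chromosome 2, 126034658 to 126091185), the other ligand of epithelial FGFR2, had 271 and 185 against 244 and 214. Here the mutant lungs lay on either side of the wild type, and the interval of the log2 fold change ran from -0.60 to 0.54 (adjusted p = 0.959).

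Levels can be compared between genes only per length, and were set per kb of GENCODE M21 exon. In the wild type, Fgf10 stood at 209, Fgf18 at 117, Fgf7 at 70.5 and Fgf9 at 11.2 normalized counts per kb, means of 2 lungs. The 9 FGF family genes tested include Fgf11, Fgf12 and Fgf13, which are intracellular members and not ligands. Among the 9, Fgf1, which lacks a secretion signal, was the most abundant at 423 per kb, ahead of Fgf10. Fgf9 ranked 7, between Fgf11 (36.8) and Fgf12 (9.19), with only intracellular members below it. Neighbours in this order did not overlap between the 2 wild-type lungs except Fgf9 and Fgf12. In the mutant lungs Fgf9 stood at 3.01 per kb in each, below Fgf12 (4.51 and 3.55) and between the 2 values of Fgf13 (5.47 and 2.99).

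**Figure D2:**
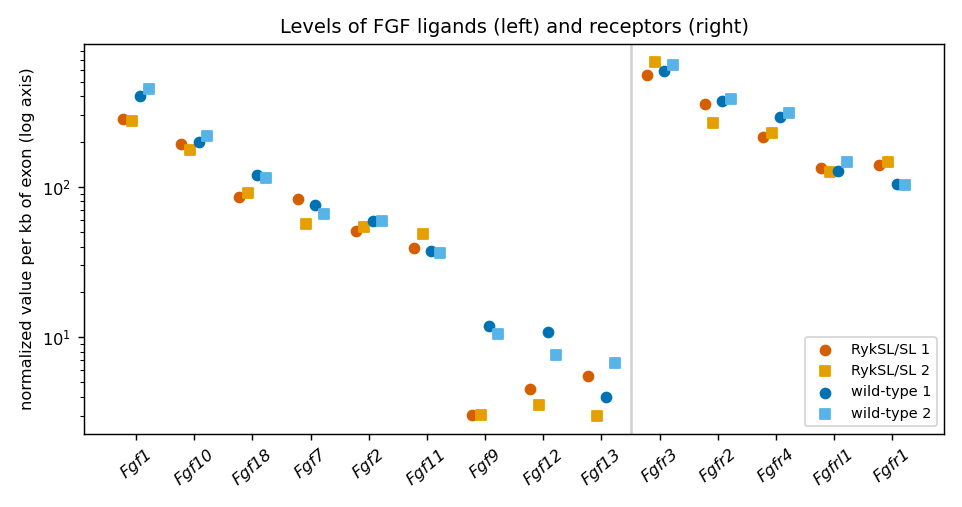
Normalized value per kb of exon (vertical log axis) of the 9 tested FGF family genes and the 5 FGF receptor genes. Genes are ordered by wild-type mean within each class, and each point is 1 lung. The first class, titled ligands, includes the intracellular members Fgf11, Fgf12 and Fgf13. Fgf9 is low among the family genes in the wild type (mean 11.2) and lower in the mutant lungs (3.01 in each). Fgfr2 is the second receptor in the order of wild-type means.

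The receptor gene Fgfr2 (ENSMUSG00000030849, chromosome 7, 130162451 to 133123350) had 3693 and 2764 normalized counts in the mutant versus 3837 and 3934 in the wild type. Both mutant lungs were lower, mutant lung 1 only slightly. The log2 fold change was -0.28 with a 95% interval of -0.72 to 0.16 (adjusted p = 0.429). It was -0.07 without mutant lung 2 and -0.49 without mutant lung 1, where it passed (adjusted p = 0.0460). Per kb of exon, Fgfr2 stood at 376 in the wild type, between Fgfr3 (618) and Fgfr4 (300), and none of these neighbours overlapped in the wild-type or the mutant lungs. Gene totals do not separate the epithelial and mesenchymal splice forms of the receptor. Its exons overlap 314 bases of Ctbp2 on the same strand, and 2.47% of the 50-base sequences of its transcripts occur in that gene.

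Of the 10 members, Etv4 and Etv5 differed most between the mutant lungs. Etv5 (ENSMUSG00000013089, chromosome 16, 22381309 to 22439719), which alveolar type 2 cells also need to keep their identity, had 1556 and 649 normalized counts in mutant lungs 1 and 2 versus 2589 and 2662 in the wild type. The groups did not overlap, and mutant lung 2 was lower than mutant lung 1 by 1.26 on the log2 scale. The log2 fold change was -1.38 (standard error 0.38, interval -2.32 to -0.45, limma, adjusted p = 0.136). Without mutant lung 1 it was -2.01 and passed (adjusted p = 0.0407), and without mutant lung 2 it was -0.75 (adjusted p = 0.097).

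Etv4 (ENSMUSG00000017724, chromosome 11, 101769742 to 101785371), the close relative of Etv5, gave nearly the same 2 mutant differences at a far lower level, with 31 and 12 normalized counts in the mutant versus 48 and 54 in the wild type. The log2 fold change was -1.35 (standard error 0.47, adjusted p = 0.199). It was -1.998 without mutant lung 1, where it passed (adjusted p = 0.0420), and -0.70 without mutant lung 2 (adjusted p = 0.157). Before scaling, about 36 and 10 reads lay behind the mutant values and 49 and 54 behind the wild-type values. The Poisson interval of mutant lung 1 (25.2 to 49.8 reads) reached into those of the wild-type lungs (from 36.3 and 40.6 reads), and that of mutant lung 2 (4.80 to 18.4) did not. Per kb of exon the wild-type means were 640 for Etv5 and 16.4 for Etv4. Of the 50-base sequences of Etv5 transcripts, 24.5% also occur in the transcript of Gm4798, so reads there may have been shared between them; none of those of Etv4 were shared.

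Alveolar type 2 markers (Sftpc, Sftpb, Sftpa1, Abca3, Lamp3, Slc34a2, Lyz2, Napsa) are set beside Etv5, with lists that split the mutant lungs. The type 2 markers summed to 287723 and 237682 in the mutant lungs, versus 360055 and 323325 for wild type, and none of the 8 passed or was at 0. Their median difference from the wild-type mean was -0.16 in mutant lung 1 and -0.33 in mutant lung 2, where Etv5 was at -0.75 and -2.01. Those sums were lower in the mutant without overlap. Smooth muscle markers (Acta2, Myh11, Tagln, Cnn1, Des) summed to 9840 and 3776 against 7945 and 6698, with median differences of 0.43 and -0.98. Endothelial markers (Pecam1, Cdh5, Kdr, Tek, Cldn5) summed to 28716 and 16836 against 22031 and 24106, with medians of 0.38 and -0.39. By these sums mutant lung 2 was the lowest lung and mutant lung 1 the highest. In either list 0 of 5 genes passed and none was at 0. The sums of the epithelial markers had this order too (34428 and 21841 against 31838 and 28901), with medians of 0.38 and -0.08. The part of these cell types in the Etv4 and Etv5 values was not tested.

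The Sprouty genes had mutant values near the wild type, except Spry2 in mutant lung 2. Spry1 (ENSMUSG00000037211) had 2114 and 2085 normalized counts in the mutant versus 2040 and 2034 in the wild type. Its log2 fold change of 0.04 had an interval of -0.27 to 0.36 (adjusted p = 0.884). The sign turned to -0.04 when values were rescaled to equal library totals and to -0.08 after quantile normalization. Spry4 (ENSMUSG00000024427) had 484 and 510 against 497 and 498, with an interval of -0.35 to 0.35 (adjusted p = 0.995). Exons of Spry1 overlap those of Gm42922 on the opposite strand by 710 bases, and 21.8% of its 50-base sequences are shared with it, but Gm42922 had values of only 1 to 8.

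Spry2 (ENSMUSG00000022114, chromosome 14, 105891949 to 105896819) split the mutant lungs. Normalized counts were 576 in mutant lung 1 and 1094 in mutant lung 2, on either side of the wild-type values of 709 and 701. The log2 fold change was 0.17 with an interval of -0.55 to 0.90 (adjusted p = 0.790). It was -0.29 without mutant lung 2 (adjusted p = 0.145) and 0.63 without mutant lung 1, where it passed (adjusted p = 0.0437). The mesothelial markers had the same order of mutant lungs, with median differences of -0.80 and 0.32 from the wild-type mean. Upk1b, however, was above that mean in both (0.11 and 0.63). The order was not particular to these markers, since Dusp4, Egr1 and Myc had it too. The part of mesothelium in the Spry2 values was not tested. In mutant lung 2, then, Spry2 was the highest of the 4 lungs and Etv4 and Etv5 the lowest. Per kb of exon the wild-type levels were 701 for Spry1, 338 for Spry2 and 105 for Spry4, an order that the mutant lungs kept without overlap.

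Without mutant lung 1, the lung that stood apart in Xist, 5 of the 10 members passed: Fgf9, Fgfr2, Etv4 and Etv5 were lower and Spry2 was higher. In that comparison 12.9% of all genes tested were called, 6.43% lower and 6.5% higher, and mutant lung 2 stands alone for its genotype and is assumed to vary like the wild-type lungs. Without mutant lung 2, none of the 10 passed, nor did any other gene.

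**Figure D3:**
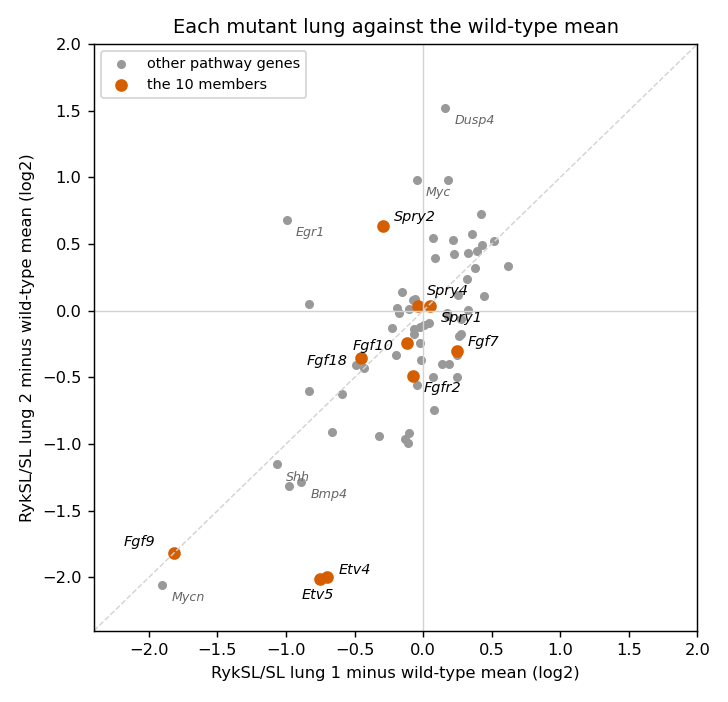
Difference from the wild-type mean in mutant lung 1 (horizontal axis) and mutant lung 2 (vertical axis), in log2(value + 1), for the 10 members and the other tested FGF pathway genes; each point is 1 gene, the dashed line marks equal differences, and Shisa2, at -3.44 and -3.73, lies outside the axes. Fgf9 lies on the dashed line at -1.82, Etv4 and Etv5 lie below it, and Spry2 lies at -0.29 and 0.63.

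The rest of the pathway was read from a list of 79 genes in 7 roles, of which 78 were in the table and 62 were tested. Of these, 4 fell (Shisa2, Mycn, Shh and Bmp4), none rose and 58 did not pass. Over all genes tested 2.39% were called, 0.917% lower and 1.47% higher. The median log2 fold change was -0.06. Of the 18 other FGF family genes, 13 lay below the filter, and Fgf4, Fgf15 and Fgf20 were at 0 in each library. Fgf1 had 1533 and 1498 against 2184 and 2439 normalized counts (log2 fold change -0.61, adjusted p = 0.0903) and Fgf12, an intracellular family member, had 28 and 22 against 67 and 47 (-1.15, adjusted p = 0.136). Fgf2 had a log2 fold change of -0.18 (adjusted p = 0.553). None of the 5 tested genes of this role passed.

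None of the 4 other receptor genes passed. Fgfr1, the main mesenchymal receptor, had 1376 and 1437 normalized counts against 1033 and 1008 (log2 fold change 0.46, adjusted p = 0.142), and Fgfr4 had 758 and 803 against 1034 and 1094 (-0.45, adjusted p = 0.158). The genotypes did not overlap in either gene, and the fold changes had opposite signs. The decoy receptor gene Fgfrl1 was at -0.07 (adjusted p = 0.839). Of 11 tested co-receptor, carrier and heparan sulphate genes none passed. Sulf1, which removes sulphate from heparan chains that FGFs bind, had 667 and 781 against 1323 and 1062 (-0.71, adjusted p = 0.103). The heparan sulphate enzymes Glce and Hs2st1 differed by 0.48 (adjusted p = 0.183) and -0.63 (adjusted p = 0.202) in log2.

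No gene of the FRS2, RAS and ERK relay passed among 18 tested, and their median log2 fold change was 0.05. The smallest p-values belonged to the RAS activator Sos2, with 1327 and 1331 against 916 and 941 normalized counts (0.52, adjusted p = 0.113), to the adaptor Frs2 (0.42, adjusted p = 0.165) and to the phospholipase Plcg1 (0.47, adjusted p = 0.173). Among the regulators of Fgf10, 5 were tested and none passed. Tbx2, Tbx4 and Foxf1, transcription factors of lung mesenchyme, differed by -0.26, 0.17 and -0.10 in log2 (adjusted p = 0.370, 0.605 and 0.715).

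Of 9 other inhibitors tested, 1 passed, where 2.39% of all tested genes did. Shisa2, which keeps immature FGF and WNT receptors from leaving the endoplasmic reticulum, stood at 58 and 47 versus 627 and 649 (log2 fold change -3.59, standard error 0.19, adjusted p = 0.00415). It fell in both mutant lungs, by more than any other gene of the pathway list or any of the 10 members. Spred3, a Sprouty relative, had a log2 fold change of 0.58 (adjusted p = 0.261), and Cbl, which marks activated receptors for degradation, of 0.28 (adjusted p = 0.321). The 3 ERK phosphatase genes of the list, named after their values were seen, did not share an order of the mutant lungs. Dusp4 had 177 in mutant lung 1 and 456 in mutant lung 2 against 149 and 168 (0.84, adjusted p = 0.332). Dusp6 had 1639 and 1490 against 1431 and 1324, and Dusp5 192 and 178 against 197 and 186, so mutant lung 2 was the higher mutant lung for Dusp4 and the lower for Dusp5 and Dusp6.

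Of 10 other downstream genes, 3 fell and none rose, where 0.917% of all tested genes were called lower. Mycn, a growth factor-responsive transcription factor of distal lung epithelium, stood at 29 and 26 normalized counts versus 103 and 120 (log2 fold change -1.98, standard error 0.25, adjusted p = 0.0243). Shh, the epithelial signal to mesenchyme, stood at 303 and 285 versus 665 and 605 (-1.11, standard error 0.15, adjusted p = 0.0289). Bmp4, a signalling ligand of the distal buds, had 382 and 291 against 736 and 682 (-1.09, adjusted p = 0.0452). These genes had similar values in the 2 mutant lungs: the differences from the wild-type mean were -1.90 and -2.05 for Mycn, -1.06 and -1.15 for Shh and -0.89 and -1.28 for Bmp4. As for Fgf9, these calls and that of Shisa2 were lost without mutant lung 2 or either wild-type lung. No gene of the whole table passed in those fits, so the loss is not particular to these genes. Over single lungs left out, the log2 fold change ran from -2.09 to -1.87 for Mycn and from -1.18 to -1.04 for Shh. It ran from -1.28 to -0.89 for Bmp4 and from -3.73 to -3.44 for Shisa2.

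The 7 other downstream genes, named after their values were seen, did not pass. Etv1, the other ETV gene of the list, was near the wild type in both mutant lungs. It had 377 and 421 against 381 and 414 (log2 fold change 0.0045, limma, adjusted p = 0.991). Phlda1 lay at -0.83 from the wild-type mean in mutant lung 1 and at 0.05 in mutant lung 2. Sox9, a distal progenitor factor, had 56 and 47 against 95 and 84 (-0.79, adjusted p = 0.158). Id2 and Ccnd1 were near the wild type in mutant lung 1 (-0.10 and -0.11) and lower in mutant lung 2 (-0.92 and -0.99), the side on which Etv4 and Etv5 also lay. Egr1 and Myc, early targets of ERK, went the other way in mutant lung 2, at 0.68 and 0.98 above the wild-type mean, against -0.99 and -0.05 in mutant lung 1. Their adjusted p-values over both lungs were 0.895 for Egr1 and 0.504 for Myc.

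**Figure D4:**
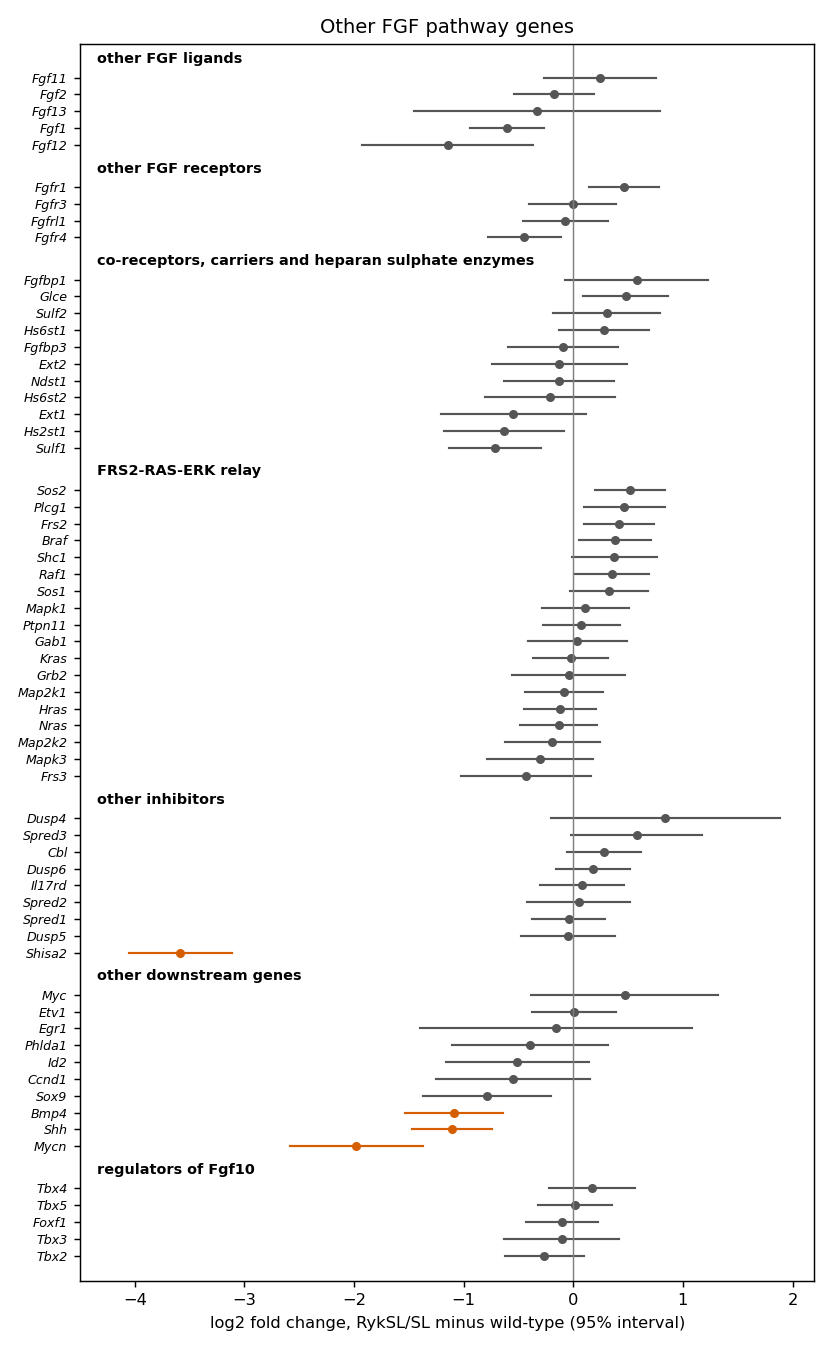
Log2 fold change, mutant minus wild type, with its 95% limma interval (horizontal bars) for the 62 tested genes of the wider FGF pathway list, grouped by role; orange marks an adjusted p under 0.05. The 4 orange genes are Shisa2 (-3.59), Mycn (-1.98), Shh (-1.11) and Bmp4 (-1.09), and the genes of the relay lie between -0.43 and 0.52.

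Genes whose 4 values were most like those of Fgf9 were sought by the distance between log2(value + 1) profiles centred on their mean, over 4 libraries. Members, pseudogenes, predicted gene models and genes with only a clone name were left out. The nearest 3 were Gng8 (21 and 22 against 84 and 76 normalized counts, distance 0.06), the Irx3 antisense gene Irx3os (23 and 23 against 79 and 75, distance 0.13) and the sialyltransferase gene St6gal2 (5 and 6 against 21 and 19, distance 0.20). Over 4 libraries in 2 groups, this measure reads mainly the size of the difference between the genotypes.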

How the data were processed

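Libraries came from the left lung lobe of 2 RykSL/SL and 2 wild-type mice at postnatal day 1, from 3 micrograms of total RNA each with a stranded mRNA kit, per the labels' protocols. Per the submitters' processing notes, FastQC, STAR 2.4.0a, featureCounts 1.5.1 of Subread and DESeq2 1.14.1 were used, with builds mm10 and GRCm38; their roles, the strand setting and the handling of multiply aligned reads were not stated in the sources used here. The authors deposited whole-number normalized counts, treated here as a score; gaps in the values show scaling and rounding after counting. Factors of 0.855, 1.17, 0.987 and 0.994 (mutant lungs 1 and 2, wild-type lungs 1 and 2) were estimated from those gaps and used only to estimate reads. No count model was run, since neighbouring counts can fall on 1 value.

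Genes were tested with limma 3.58.1 (R 4.3.3) on log2(value + 1), with a mean-variance trend (4.07 prior degrees of freedom), two-sided, over genes whose mean was at least 10. Fold changes on this scale understate changes of low genes. An adjusted p under 0.05 was a call. limma and the factor estimate were tested on simulated data. Groups came from the sample titles. Intervals are 95% intervals. Members and lists were chosen with earlier results of these data known. All 10 members are named, with each called pathway gene and up to 3 genes per role by p. The 3 genes nearest the member with the smallest p are named too, from those left after the exclusions given there. Others are said to be named later. Exon lengths, overlaps and shared 50-base sequences came from GENCODE M21 (GRCm38). Python 3.11.15 with pandas 2.3.3 and scipy 1.17.1 was used besides. The 12 alternatives tried are given in the closing section.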

Additional observations from a re-analysis of the deposited data

How the results depend on the processing

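Fold changes of the 10 members kept their direction under the 12 alternatives except as follows. Fgf7, at -0.03, turned to 0.0404 after quantile normalization and to 0.25 and 0.07 without mutant lung 2 or wild-type lung 1 (-0.30 to 0.25 over single lungs left out). Spry1 turned to -0.0352 with equal library totals and to -0.0828 after quantile normalization. Spry4 turned to 0.0001 after quantile normalization and ranged from -0.0396 to 0.0357 over lungs left out. Spry2 ranged from -0.29 to 0.63. Of the other pathway genes, Fgfrl1 ranged from -0.167 to 0.0234, Egr1 from -0.99 to 0.68 and Myc from -0.0453 to 0.98. All genes called (440) became 0 when low genes were not filtered out (limma; 4876 had an unadjusted p under 0.05), 72 without the trend, and 0 to 2385 over lungs left out; the zeros came without mutant lung 2 (5249 at an unadjusted p under 0.05), wild-type lung 1 (917) or wild-type lung 2 (1133). Members called (1) became 0 with no filter and 0 with a minimum mean of 50, which leaves Fgf9 and Etv4 untested, and 0 to 5 over lungs left out. Pathway genes called (4) became 0 with no filter, 2 without the trend (Mycn and Shisa2), and 0 to 15 over lungs left out. The cause of these shifts was not tested.

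The replicate numbers are not stated to pair the mice, and the differences between replicates 1 and 2 correlated across genes at -0.06 between the genotypes. A replicate block gave 766 calls over all genes (4.15%) and 2 among the members, Fgf9 and Etv5 (adjusted p = 0.0274 for Etv5); it left the 4 pathway calls. Low values limit Fgf9 and Etv4 most.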
